A study of Drosophila melanogaster with 38 samples.

Results

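Of the 1883 O-GlcNAc peaks in the authors' list for Drosophila melanogaster larvae, 314 (16.7%) were narrow, isolated, autosomal and away from OGA. They were chosen by position alone: a peak had to lie on an autosome outside the heterochromatin sequences, span fewer than 75 bp, lie more than 1000 bp from every OGA interval, and have no other O-GlcNAc peak within 10000 bp, edge to edge. These steps left 1661 autosomal peaks, then 1252 narrow ones, then 907 without OGA nearby, and then the 314. The 593 narrow peaks dropped at the last step had a close neighbour. The signal played no part in the choice among listed peaks.

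O-GlcNAc transferase (OGT) puts 1 N-acetylglucosamine, O-GlcNAc, on serine or threonine residues of proteins in the nucleus and cytoplasm. OGA, the O-GlcNAcase, takes the sugar off again. In Drosophila the transferase is the product of super sex combs, a Polycomb group gene, and O-GlcNAc on chromatin is known from Polycomb response elements, the sites that recruit Polycomb complexes to silenced developmental genes.

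The study fed larvae Ac4GalNAz, an azide-bearing sugar analogue that cells pass on to O-GlcNAc sites, at 150 uM for 36 h from egg laying. It then moved them to food with the DMSO vehicle only, the chase, and sampled them 8 times, at intervals of 4 h from 0 to 24 h and again at 36 h. Azide-bearing chromatin was clicked to a biotin handle, purified on streptavidin and sequenced. Oregon R wild-type larvae (WT) and larvae without OGA (OGA-null, labelled with the same strain background) gave 2 biological replicates per time, 32 libraries in all, each from whole larvae pooled from many parents. The genotypes differed before the chase too, so growth, feeding and labelling cannot be told apart from the chase itself. A further 4 unfed libraries were not analysed here, and 2 OGA ChIP-seq libraries, 1 per genotype, share a single list of 3534 intervals.

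Each of the 16 deposited columns joins both replicates of a genotype and time. The spread between replicates could therefore not be seen, and errors below describe scatter around a line over the chase times. Read totals were not given, so depth is unknown, and the sources used here do not say how the columns were scaled to each other. Values are signal per base, the deposited signal of a peak divided by its width. Because whole larvae were used, fewer labelled cells and less label per cell cannot be told apart.

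The 314 peaks were spread over all major arms, given here in the dm3 build with positions counted from 1. Arm 3R carried 91, arm 2L 89, arm 2R 70 and arm 3L 63, and chromosome 4 carried 1. They made up 23.9% of the 373 O-GlcNAc peaks on 2L, 18.9% of 482 on 3R, 17.6% of 397 on 2R and 15.4% of 408 on 3L. Per megabase spanned by the peaks and intervals, 2L held 3.89, 2R 3.37, 3R 3.26 and 3L 2.58. When each arm was cut into 10 equal parts, every part of the 4 large arms held at least 2 of the 314 peaks, and the fullest, on 3R, held 22. All O-GlcNAc peaks together ranged from 6 to 121 per part, but isolation was part of the choice, so the flatter layout was built in. The peak on chromosome 4, chr4:1052482-1052501, is the only O-GlcNAc peak of that chromosome.

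The narrowest width in the list, 20 bp, was also the commonest. Of the 314 peaks, 154 (49.0%) were 20 bp wide, against 679 (36.1%) of all O-GlcNAc peaks. All peaks include the wider ones that the choice barred, so a higher share was built in. The 593 narrow peaks with a close neighbour had a median width of 22 bp. A further 95 were wider than 20 and narrower than 50 bp and 65 spanned 50 to 74 bp, with a median of 21 bp. Together they covered 10387 bp, 9.47% of all peak bases, and held 8.47 to 8.95% of the summed signal in each of the 16 columns. Chromatin had been sheared to fragments much longer than these widths, so these widths do not measure the size of a bound site.

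The isolated peaks also lay farther from OGA than the 593 narrow peaks with a close neighbour. Their gap to the nearest OGA interval had a median of 12223 bp and ran from 1030 to 437477 bp, against a median of 5798 bp for those 593, where the same limit of 1000 bp held. No test was made. It was at most 5000 bp for 81 peaks and at most 10000 bp for 137, and it exceeded 100000 bp for 16. The gap to the nearest O-GlcNAc peak had a median of 36014 bp over the 313 peaks with a neighbour on the same sequence, and 47 were more than 100000 bp from one. An OGA interval was closer than another O-GlcNAc peak for 252 of the 314, counting the chromosome 4 peak, which has no O-GlcNAc neighbour. Much of this was built in, because the choice barred O-GlcNAc neighbours within 10000 bp but OGA only within 1000 bp. The 137 peaks with OGA at most 10000 bp away were closer to OGA by these limits alone. The list of OGA intervals is also the longer one. For 112 of 313, the nearest O-GlcNAc peak was itself one of the 314.

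**Figure D1:**
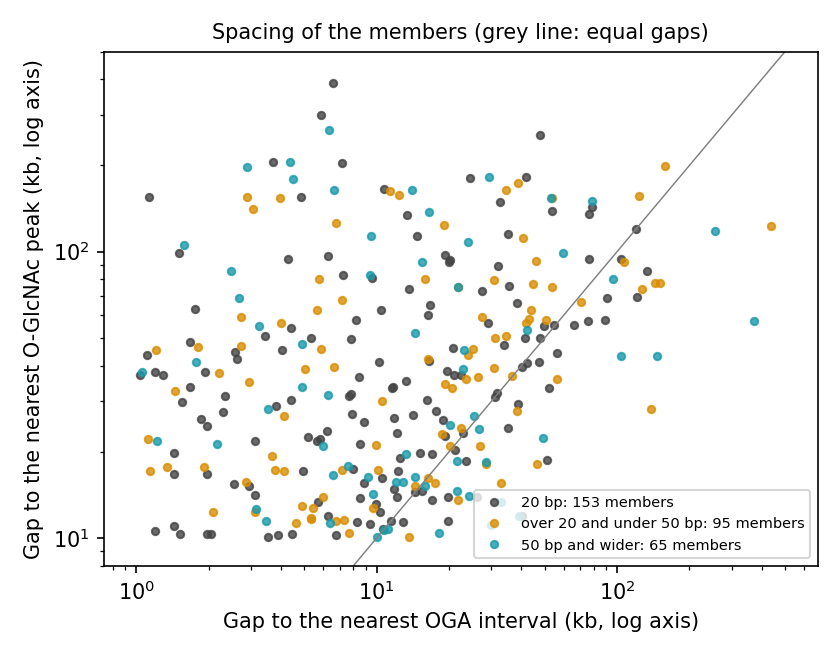
Gap from each of 313 peaks to the nearest OGA interval (horizontal, kb, log axis) and to the nearest other O-GlcNAc peak (vertical, kb, log axis), coloured by width; the grey line marks equal gaps. Most points lie above the line, closer to OGA than to O-GlcNAc, and the 3 width classes are mixed. The count of 252 of the 314 peaks closer to OGA includes the chromosome 4 peak, which is not drawn.

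The most remote peaks show what the limits select. The peak chr3R:23384851-23384870 lay 389557 bp from any other O-GlcNAc peak but 6579 bp from an OGA interval, and chr2L:20448874-20448893 lay 300256 and 5840 bp away. The farthest from OGA were chr3L:14625760-14625803, at 437477 bp, and chr3L:10732561-10732616, at 373013 bp. These 4 had WT 0 h signals of 26.7, 37.9, 35.2 and 31.9 per base, inside the range of the rest.

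The peaks nearest each limit of the choice are given with their levels as examples, too few for a comparison across a limit. Just inside were chr2R:1331299-1331318, with an OGA gap of 1030 bp and a WT 0 h signal of 30.9 per base, and chr3L:3799897-3799965, with a neighbour at 10075 bp and 28.8 per base. Just outside were chr3L:5802890-5802961, with an OGA gap of 989 bp and 32.4 per base, and chr2L:3036776-3036795, with a neighbour at 9928 bp and 26.5 per base. By width, chr2L:16251756-16251829 and chr2R:11878677-11878750 were the widest admitted at 74 bp, with 38.5 and 25.0 per base. The peak chr2R:12579177-12579251, at 75 bp and 28.6 per base, was not admitted.

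In WT larvae the label of every one of the 314 peaks was below its starting level by 4 h. From 0 to 12 h, at steps of 4 h, the median signal per base was 32.4, 15.5, 10.5 and 5.21. At 16, 20, 24 and 36 h it was 4.38, 2.58, 0.963 and 0.154. As shares of each peak's own 0 h value, the medians at 4, 8, 16, 24 and 36 h were 48.0, 32.5, 13.3, 2.92 and 0.440%. Over all 1883 peaks the same shares were 48.0, 32.6, 13.7, 3.06 and 0.497%. From 4 to 24 h the isolated narrow peaks thus stood within 0.5 percentage points of the list as a whole. At 36 h both shares were themselves under 0.5%, so that margin says nothing there.

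The WT decline was not even from step to step. Between 12 and 16 h the median peak kept 87.1% of its signal, and 113 of the 314 (36.0%, against 32.4% of all peaks) were higher at 16 than at 12 h. Between 20 and 24 h the median peak kept 37.7%. Between 24 and 36 h, a longer step than the others, the median peak kept 15.7%. A step that all peaks share cannot be told apart from the scaling of its columns.

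OGA-null larvae started lower and lost the label later. Their median signal per base from 0 to 12 h was 22.6, 21.9, 16.4 and 13.9, and at the 4 later times 11.5, 6.68, 2.78 and 1.55. The median peak thus still had 96.0% of its 0 h signal at 4 h and 50.4% at 16 h, but 12.3% at 24 h and 6.88% at 36 h. At 4 h, 122 of the 314 (38.9%, against 43.8% of all peaks) were above their own 0 h value, 4 were at 8 h, and 1 was at 12 h. The steepest step of this genotype was from 20 to 24 h, across which the median peak kept 42.5%. From 24 to 36 h, a longer step than the others, it kept 55.2%.

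**Figure D2:**
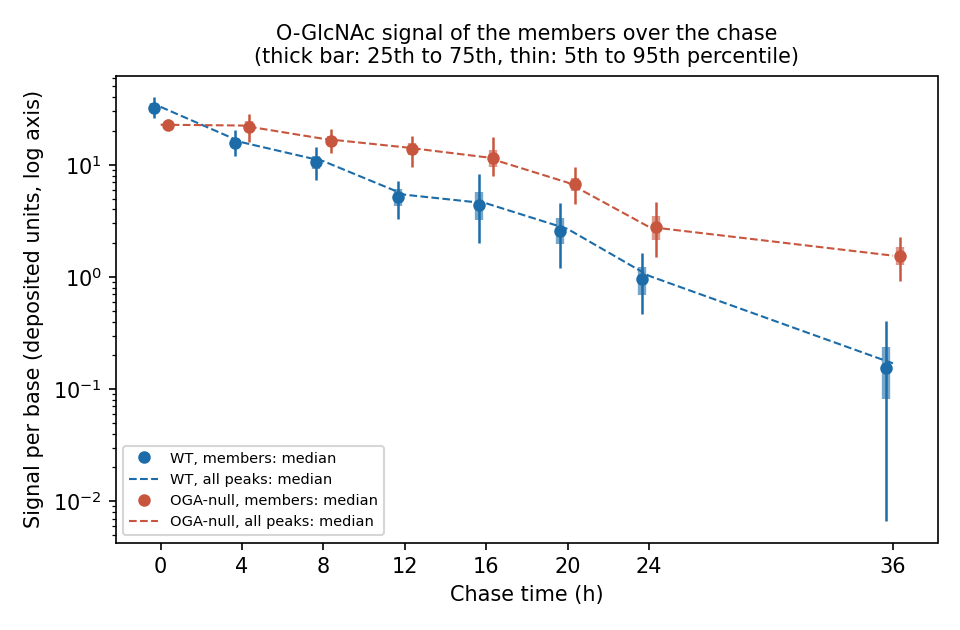
Signal per base (vertical, deposited units, log axis) against chase time (horizontal, h) for the 314 peaks in WT and OGA-null larvae. Points are medians over peaks, thick bars the 25th to 75th and thin bars the 5th to 95th percentile, and dashed lines the medians of all 1883 peaks, which the points follow closely; the WT 36 h bar is by far the longest.

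The order of the genotypes reversed within the first 4 h. At 0 h none of the 314 peaks was higher in OGA-null larvae: the ratio to WT had a median of 0.697 and a maximum of 0.965. At 4 h the median ratio was 1.39 and 307 of the 314 were higher in OGA-null larvae. At 8 h it was 1.55 with 312 higher, and from 12 h on all 314 were higher. The ratio then stayed level, at 2.64, 2.60, 2.57 and 2.84 from 12 to 24 h, before 10.1 at 36 h for the 300 peaks not listed at 0 in WT. The last value rests on the WT 36 h column, where 14 of the 314 peaks (and 35 of all 1883) were listed at 0 and the 5th to 95th percentile of the ratio ran from 3.46 to 70.2. None of the 314 was at 0 in OGA-null larvae at any time. The scaling of a column enters all its peaks alike, which makes these counts dependent on each other. The size of the ratios, and so the reversal, cannot be told apart from that scaling.

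**Figure D3:**
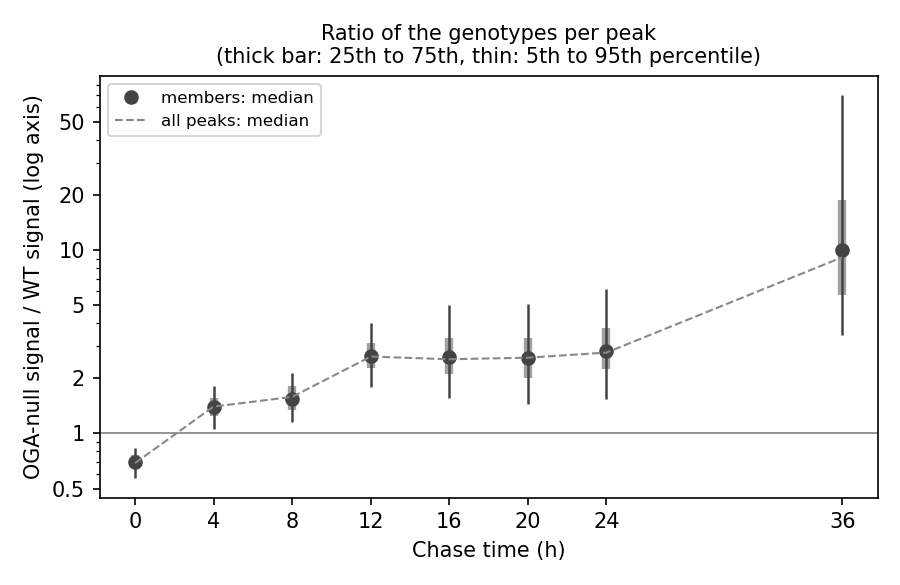
Signal of OGA-null over WT larvae per peak (vertical, log axis) against chase time (horizontal, h). Points are medians over the 314 peaks (300 at 36 h), thick bars the 25th to 75th and thin bars the 5th to 95th percentile, and the dashed line is the median of all peaks; the median passes from 0.697 at 0 h to 1.39 at 4 h, is level from 12 to 24 h and reaches 10.1 at 36 h.

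A straight line was fitted per peak to log2(signal per base + 0.02) against hours, with a slope for each genotype, by limma across all 1883 peaks. On the deposited scale all 314 peaks declined in WT and all 314 in OGA-null larvae at an adjusted p under 0.05 (Benjamini-Hochberg over all peaks). The background among all peaks was 100.0% in both. The decline was slower in OGA-null larvae for 303 of the 314 (96.5%), against 94.8% of all peaks, and faster for 0, against 0.0%. The share among the 314 peaks is close to the background in each of these counts. By the exact permutation of the 8 chase times, 284 of the 314 passed for the difference, against 90.0% of all peaks. By limma without the 36 h columns 227 passed, against 72.1% of all peaks, and without the 0 h columns 233, against 71.1%.

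The slopes translate into apparent half-lives, which assume a steady exponential loss. The median was 4.81 h in WT (median SE of the fit 0.366 h), from 3.49 to 6.50 h, and 8.54 h in OGA-null larvae (median SE 1.16 h), from 6.27 to 11.4 h. All 1883 peaks had medians of 4.94 and 8.47 h. The half-life was longer without OGA in all 314 peaks, with a median ratio of 1.75 against 1.71 for all peaks. OGA-null signal held for 4 h and then fell faster. The half-lives depended on the times used, and the cause was not tested. Without the 0 h columns the medians were 4.82 h in WT and 7.93 h in OGA-null larvae. Without the 24 and 36 h columns the medians were 5.64 h in WT and 11.8 h in OGA-null larvae.

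Within the narrow range of widths, the wider peaks had the larger ratio of half-lives between genotypes. The median WT half-life was 4.92 h at 20 bp, 4.83 h in the class between and 4.64 h at 50 to 74 bp. The OGA-null medians ran the other way, at 8.42, 8.68 and 8.77 h. The median ratios were 1.71, 1.79 and 1.85. These steps are smaller than the standard error of a single peak's half-life, but that is not the error of a class median. No test was made over the width classes. The ratios of signal are given only for the peaks under 50 bp and for all 314, which contain them. A difference between width classes would be diluted there. For peaks under 50 bp the median OGA-null to WT ratio was 1.40, 2.63 and 2.93 at 4, 16 and 24 h. It was 1.39, 2.60 and 2.84 for all 314.

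The extremes of the WT half-life came from both ends of the WT 36 h column. The shortest in WT were chr2R:11016297-11016366 at 3.49 ± 0.199 h (SE of the fit) and chr3R:18288421-18288440 at 3.49 ± 0.201 h, both listed at 0 at 36 h. The longest were chr3L:3075063-3075082 at 6.50 ± 0.696 h and chr3L:23455283-23455302 at 6.42 ± 0.645 h, whose 36 h signals of 0.518 and 0.626 per base were more than 3 times the median. In OGA-null larvae the shortest were chr2L:5292994-5293064 at 6.27 ± 0.612 h and chr3R:8859629-8859648 at 6.45 ± 0.661 h, and the longest chr3R:19653639-19653696 at 11.4 ± 2.11 h and chr3R:12903822-12903849 at 10.4 ± 1.72 h.

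The highest starting level belonged to chr3R:19653639-19653696, a 58 bp peak. Its WT signal per base was 48.2, 24.4, 19.9, 10.2, 12.6, 6.62, 2.34 and 0.119 from 0 to 36 h. In OGA-null larvae it was 28.5, 33.6, 25.5, 26.4, 24.4, 12.5, 7.90 and 3.95 at the same times. It stood above the median of the 314 in every column except WT 36 h, and in OGA-null larvae it kept 85.7% of its 0 h signal to 16 h. The next highest at WT 0 h were chr2R:6670381-6670400 with 46.5 and chr2L:5027395-5027436 with 44.9 per base.

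The lowest starting levels were those of chr3R:27261567-27261610, chr2R:15329074-15329093 and chr2L:21644013-21644036, at 23.4, 23.8 and 23.9 per base in WT at 0 h. At 16 h these 3 kept 14.0, 14.4 and 15.1% in WT and 41.5, 39.2 and 49.1% in OGA-null larvae. In WT they were near the median share of the 314, and in OGA-null larvae below it. The whole span from lowest to highest WT 0 h signal was thus about as wide as a doubling, and the OGA-null 0 h signals ran only from 17.8 to 28.5 per base.

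How far the 314 peaks spread around each other grew with the chase. In WT larvae the SD of log2 signal over the peaks was 0.19, 0.24, 0.31 and 0.36 from 0 to 12 h. At the 4 later times it was 0.65, 0.60, 0.57 and 1.13. In OGA-null larvae it rose from 0.10 at 0 h to 0.37 at 16 h, 0.50 at 24 h and 0.41 at 36 h. Lower signals carry more counting noise, and since depth is unknown its part in this spread was not tested.

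Peaks that were high in one column tended to be high in others, with WT 36 h as the exception. Over the 314 peaks, which share the columns' depth and scaling, Pearson's r of log2 signal between any 2 of the other 15 columns lay between 0.18 and 0.61. Between WT 36 h and the others it lay between -0.18 and 0.10. Of the 31 highest peaks at WT 0 h, 11 were among the 31 highest at WT 4 h, 11 at OGA-null 0 h and 1 at WT 36 h. Rank correlations of signal per base with width were 0.27 at WT 0 h and 0.26 at OGA-null 0 h, and -0.13 at WT 36 h (Spearman's rho, n = 314).

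What was left in WT larvae at 36 h was lower at peaks far from OGA and at peaks far from other O-GlcNAc. The median was 0.183 per base for the 81 peaks with an OGA gap of up to 5000 bp, 0.154 for the 120 from there to 20000 bp, and 0.116 for the 113 beyond. These groups kept 0.570, 0.438 and 0.347% of their 0 h signal. Of the 14 peaks at 0, 10 were in the farthest group. Over gaps to another O-GlcNAc peak of up to 20000 bp, up to 50000 bp and more, the medians were 0.169, 0.163 and 0.116 per base, with 0, 7 and 7 peaks at 0. The 2 gaps were not separated. Spearman's rho of the WT 36 h signal was -0.24 with the OGA gap and -0.21 with the O-GlcNAc gap over the 314. With the OGA gap it was -0.13 over the 593 narrow clustered peaks and -0.19 over the 320 wider autosomal peaks away from OGA. It was 0.02 over the 434 autosomal peaks within 1000 bp of OGA and -0.19 over all 1883. At WT 24 h it was -0.07 and at OGA-null 36 h 0.07 over the 314, also with the OGA gap. With the O-GlcNAc gap, rho at WT 36 h was 0.06 over the 593, -0.11 over the 320, -0.04 over the 434 and -0.05 over all. Over the 314 it was -0.08 at WT 24 h and between 0.10 and 0.25 in all columns other than WT 24 and 36 h. The trend was seen in 1 column, the lowest of the table, and no test was made.

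To ask which peaks kept or lost label faster than others, each column was centred on the median of all peaks, which takes out a factor common to the column. A slope above 0 then means slower loss than the median peak. In WT larvae, 19 of the 314 (6.05%) lost signal more slowly, against 6.43% of all peaks, and 50 (15.9%) faster, against 14.1% of all peaks (limma, adjusted p under 0.05). Both shares are near the background. Centring on the peaks of 75 bp and wider instead gave 37 slower, against 13.8% of all peaks, and 36 faster, against 8.87%, so the split between directions depends on the reference.

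Few of these calls passed without the 36 h columns. Whether the WT 36 h values or the shorter span of hours brought this was not tested. The WT 36 h values given next went into the calls. The 19 slower peaks had WT 36 h signals of 0.285 to 0.626 per base and the 50 faster ones 0 to 0.0841, while the 245 others had 0.0320 to 0.580. All 14 peaks at 0 were among the 50. At 0 h the 19 and the 50 overlapped, at 26.2 to 34.7 and 26.3 to 43.1 per base. Without the 36 h columns 6 of the 314 passed: 1 slower, against 0.266% of all peaks, and 5 faster, against 1.22%. None of the 19 and 5 of the 50 were among them, though 18 of the 19 and 38 of the 50 kept the sign of their slope. Without 24 and 36 h 25 passed, against 7.54% of all peaks, and 17 passed with 0.1 in place of 0.02 added to the signal, against 5.15%. By the exact permutation of the chase times 1 of the 314 passed, against 0.0531% of all peaks, so it was the only one in the list. It was chr3L:9608042-9608072, named here after its values were seen, with a relative WT slope of -0.08 log2 per h (adjusted p = 0.0467) and a WT 36 h signal listed at 0. Its p by the exact permutation was 2.48e-05, the smallest that 40320 orders can give. A lone peak needs that p to pass, but peaks that pass together do not. By the same permutation 90.0% of all peaks passed for the genotype difference on the deposited scale. On the centred WT slopes 51 of the 314 (16.2%) had an unadjusted permutation p under 0.05, against 17.7% of all. The fit gives WT and OGA-null values of a peak 1 common residual variance, while the WT 36 h values scatter far more than the rest.

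**Figure D4:**
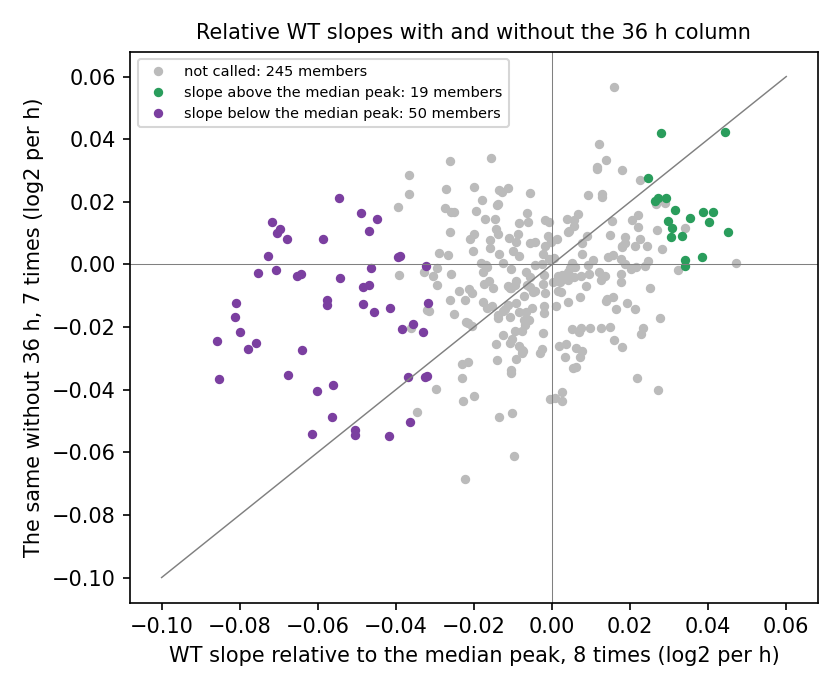
Slope of each of the 314 peaks in WT larvae relative to the median peak (log2 per h) with all 8 chase times (horizontal) and without 36 h (vertical); colours mark limma's calls with all times and the diagonal marks equal slopes. The 50 peaks called faster spread far to the left but mostly lie above the diagonal, between -0.06 and 0.03 on the vertical axis.

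Among the 19, the smallest p belonged to chr2L:1940689-1940708. Its WT signal per base was 26.3, 13.2, 13.2, 4.84, 5.19, 3.26, 1.96 and 0.427 from 0 to 36 h, against medians of 32.4 at 0 h and 0.154 at 36 h. In OGA-null larvae it was 22.7, 24.7, 18.0, 15.5, 15.9, 7.91, 2.76 and 1.42. It began below the WT median and ended above it, while its OGA-null values were above that genotype's median up to 20 h and below it after. Its relative WT slope was 0.04 ± 0.00871 (SE) log2 per h (limma, adjusted p = 0.00248), and 0.04 without 36 h (adjusted p = 0.0839). The next 4 were chr2L:8743210-8743229, chr2L:10645563-10645582, chr3R:5894728-5894759 and chr2L:1596337-1596356, with slopes of 0.03 to 0.04 and WT 36 h signals of 0.373 to 0.605 per base. The last of these turned to -0.00254 without 24 and 36 h.

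Among the 50, chr2L:19125834-19125857 had the smallest p. Its WT signal per base was 31.3, 15.3, 9.61, 3.66, 2.82, 0.981, 0.501 and 0.0213 from 0 to 36 h. In OGA-null larvae it was 22.9, 20.9, 17.9, 12.6, 10.2, 7.17, 2.34 and 1.46. It was close to the WT median up to 8 h and below it from 12 h on, and it was called without 36 h too, but not by the exact permutation (adjusted p = 0.0892). The relative WT slope was -0.06 ± 0.00835 log2 per h (limma, adjusted p = 0.000187) and -0.05 without 36 h (adjusted p = 0.0261).

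The next 4 were chr2L:10375358-10375386, chr3R:18288421-18288440, chr3L:22380318-22380337 and chr3R:22087108-22087153, with relative slopes between -0.09 and -0.06. The last of them also passed without 36 h (slope -0.05, limma, adjusted p = 0.0375), but not without 24 and 36 h (limma, adjusted p = 0.149) or by the exact permutation (adjusted p = 0.0970). The 3 others did not pass without 36 h, with adjusted p from 0.0987 to 0.173.

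In OGA-null larvae no peak was called apart from the median course. By limma 0 of the 314 passed in either direction, against 0.0% of all peaks. At an unadjusted p under 0.05 by limma were 8 of the 314 (2.55%) and 95 of all 1883 (5.05%). The common residual variance of the fit lets the scatter of the WT values into this test. The 0 calls thus do not show that the peaks were alike in OGA-null larvae. The exact permutation of the chase times also called 0, with 50 of the 314 (15.9%) and 292 of all (15.5%) at an unadjusted p under 0.05. The smallest p by limma were those of chr2L:5292994-5293064, chr2L:12255500-12255530 and chr3R:7818988-7819027, with relative slopes of -0.04, -0.02 and 0.02 log2 per h and adjusted p of 0.309, 0.853 and 0.853. None of these 3 passed.

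The relative slopes of the genotypes differed at 2 of the 314 peaks (0.637%), against 0.212% of all peaks, which is 4 of 1883. In both the OGA-null slope was the higher, and 0 differed in the other direction, against 0.0% of all peaks. At an unadjusted p under 0.05 there were 88 of the 314 (28.0%), against 495 of all 1883 (26.3%). The first of the pair is the peak chr2L:19125834-19125857 described above, with a difference of 0.06 ± 0.0118 log2 per h (limma, adjusted p = 0.0431). The second was chr2R:11016297-11016366, a 70 bp peak without another O-GlcNAc peak for 163981 bp, with a difference of 0.10 ± 0.0211 (limma, adjusted p = 0.0497).

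At chr2R:11016297-11016366 the WT signal per base was 42.5, 19.3, 13.4, 7.11, 3.89, 2.00, 1.10 and 0 from 0 to 36 h. In OGA-null larvae it was 23.4, 26.6, 18.9, 16.5, 12.8, 9.10, 4.85 and 2.16. It was above the WT median up to 12 h and again at 24 h, and it was listed at 0 at 36 h. Its OGA-null values lay above that genotype's median throughout. Without the 36 h columns neither peak passed for the difference (limma, adjusted p of 0.631 and 0.541), and 0 of the 314 did, against 0.0% of all peaks. Nor did any by the exact permutation, with 68 of the 314 (21.7%) at an unadjusted p under 0.05, against 21.3% of all.

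**Figure D5:**
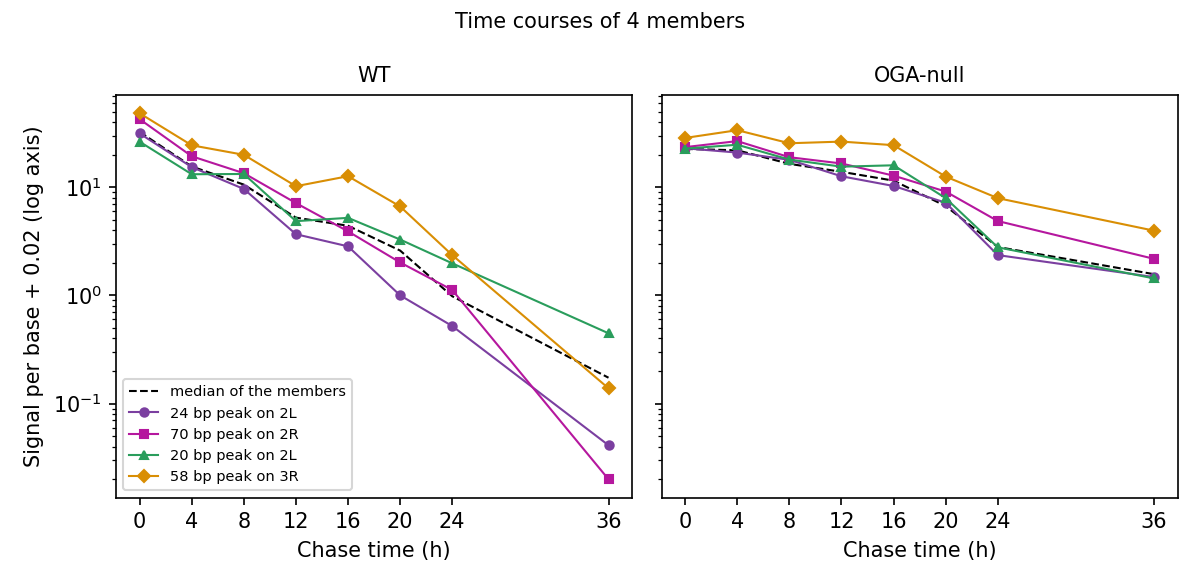
Signal per base plus 0.02 (vertical, log axis) against chase time (horizontal, h) for 4 of the 314 peaks in WT (left) and OGA-null larvae (right), with the median of the 314 as a dashed line. The 24 bp peak on 2L is chr2L:19125834-19125857, the 70 bp peak on 2R is chr2R:11016297-11016366, the 20 bp peak on 2L is chr2L:1940689-1940708 and the 58 bp peak on 3R is chr3R:19653639-19653696; the 4 lines part most at WT 36 h.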

How the data were processed

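Positions and signal come from the authors' 2 deposited peak tables. The submitters' processing notes name the builds dm3 and sacCer3, bedtools 2.17.0 and SAMtools, with no roles. Which aligner, caller, caller thresholds and scaling were used is not given in sources used here. Per the file headers, each deposited signal column combines replicates 1 and 2, and its values grow with peak width, as summed coverage does. No column of values was left unused.

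Gaps were taken edge to edge, and signal was divided by peak width. Slopes on hours were fitted with limma 3.58.1 in R 4.3.3 to log2(signal per base + 0.02), computed here from the deposited signal, over 16 columns and 1883 peaks. The fit had a variance trend on summed signal, Benjamini-Hochberg adjustment over all peaks and a threshold of 0.05. Half-life is -1 divided by the uncentred slope. The planned design allowed for values per library; columns combining replicates left 1 value per genotype and time, so p-values measure scatter around a line. An exact two-sided permutation over 40320 orders of the 8 times was the alternative test. The smallest p that this permutation can give is 2.48e-05. A lone peak at that p had an adjusted p of 0.0467 by the permutation on the centred WT slopes. The code was checked on simulated data. Other tools were Python 3.11.15, numpy 2.4.6, pandas 2.3.3, scipy 1.17.1 and matplotlib 3.10.9.

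The peaks, the limits of the choice and the tests were chosen with earlier results of these data known. Peaks are named by rule: the 3 highest and 3 lowest by WT 0 h signal, the 2 widest, the 2 with the largest gap of each kind, those beside each limit, the 2 shortest and 2 longest half-lives per genotype, and up to 5 called per direction by p, or 3 where none was. The peak on chromosome 4 and chr3L:9608042-9608072 were named outside the rule, after their values were seen. Sequence and gene annotation were not used.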

Additional observations from a re-analysis of the deposited data

Results flagged for a closer look

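A difference between the genotypes brought 3 results here. The relative slopes of 2 peaks differed between OGA-null and WT larvae by limma's test of the difference: by 0.0585 log2 per h at chr2L:19125834-19125857 and by 0.101 log2 per h at chr2R:11016297-11016366, the OGA-null slope being higher in both. Neither passed without the 36 h columns or by the exact permutation test. On the deposited scale the slopes of 303 of the 314 peaks (96.5%) differed, against 94.8% of all peaks, where the scaling of the columns enters every peak alike.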

How the results depend on the processing

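No paired analysis was possible because each column combines replicates 1 and 2, and no replicate could be left out. Of 163 counts and medians recomputed under the alternatives, 147 kept their direction and size class and 16 moved. The shares kept, the genotype ratios at 0, 4, 16 and 24 h and the counts on the deposited scale were among the 147. Even so, the 303 peaks with a slower decline in OGA-null larvae became 227 without 36 h (72.1% of all peaks). They became 233 without 0 h (71.1%). Moving the limits of the choice gave 218 to 412 peaks.

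The WT calls relative to the median peak numbered 69 of the 314, with 20.6% of all peaks called. They fell to 17 with 0.1 added (5.15% of all), 6 without 36 h (1.49%), 25 without 24 and 36 h (7.54%) and 1 by exact permutation (0.0531%). The 2 calls of the genotype difference (0.212% of all peaks) became 1 with 0.1 or 0.005 added (0.106%) and with no variance trend (0.159%), 4 with log2(summed signal + 1) (0.956%) and 6 without 0 h (1.43%). They became 0 without 36 h, without 24 and 36 h, centred on peaks of 75 bp and wider, without peaks that have a 0, and by exact permutation. Half-lives without 24 and 36 h were 5.64 h in WT and 11.8 h in OGA-null larvae. The WT relative slope of chr2L:1596337-1596356 turned from 0.04 to -0.00254 there. Of the 12 called slopes of named peaks, 12 no longer passed by exact permutation, 10 without 36 h, and 9 without 24 and 36 h beside the one that turned. By the permutation a lone peak passes only at the smallest p it can give, but peaks that pass together do not need that p. The cause of each change was not tested; the fits without columns have fewer values. Unknown depth limits every value near 0.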
